A study of Mus musculus with 4 samples.

Results

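Myogenic cells that held many Cas9 transcripts were compared with myogenic cells that held none, inside 1 single-cell library from muscle of mice given lipid nanoparticles (LNP) carrying CRISPR cargo. The cells were chosen by 4 transcripts of the muscle stem cell lineage, Pax7, Myf5, Myod1 and Myog, of which a cell had to hold at least 3 unique molecular identifiers (UMIs, one for each captured transcript) in sum. A cell also needed at least 200 detected genes, no more than 20% mitochondrial UMIs and under 10% of its UMIs from Acta1 and Ckm, which mark fibre RNA. Of 2207 barcodes in the library, 565 met the rule. Among them 91 held 4 or more Cas9 UMIs and are called Cas9-rich, 126 held 1 to 3, and 348 held 0 and are called Cas9-free.

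The series profiled skeletal muscle of a mouse model of Duchenne muscular dystrophy (DMD) with 10x Genomics 3' single-cell RNA sequencing. Its 4 libraries come from LNP-CRISPR or vehicle treatment, each as bulk muscle cells and as cells from a satellite cell isolation kit. All 4 carry the disease model, vehicle included, and the model's allele, the strain, age, dose, time after dosing and number of animals are not given in the sources used here. With 1 library in each group there are no replicates. Cells of 1 library are not replicates of a condition, so no test was made. Every interval below is a 95% interval, exact binomial for shares and ratios and exact Poisson for levels. For ratios and levels it covers counting error only. For shares of cells it covers only the number of cells drawn from the library, and no interval covers differences between animals.

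Satellite cells are the stem cells of skeletal muscle. Pax7 marks them at rest, Myf5 and Myod1 are transcription factors of the activated myoblast, and Myog drives the commitment to fuse into fibres. Dystrophin, the protein that DMD takes away, is made mainly by the fibre, and edited satellite cells could pass the edit to new fibres. LNPs enter cells through the endosome, and Cas9 is a bacterial gene that the mouse genome does not hold, so a Cas9 UMI marks a transcript that comes from the treatment.

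The rule used Cas9 UMIs and the 4 marker genes, so the levels of these 5 genes describe the choice. The vehicle libraries held 0 Cas9 UMIs. Cas9-rich cells held 4 to 642 Cas9 UMIs with a median of 19, and 6710 in all, or 1420 CPM (counts per 1000000 UMIs). The load was uneven: 23 cells with 100 or more UMIs held 80.2% of it, while 22 cells held exactly 4 or 5. At the limits, 16 cells held 3 Cas9 UMIs and 11 held 4, and 52 cells missed the rule with 2 marker UMIs, 1 of them with 4 or more Cas9 UMIs, against 30 cells that met it with 3. No cell failed the Acta1 and Ckm limit, and the highest share kept was 4.95%. Myogenic cells held 82.4% of the Cas9 UMIs of all kept cells in the LNP kit library, but 0.357% in the LNP bulk library, where 9 of 35 myogenic cells were Cas9-rich. They were 565 of 1907 kept cells in the kit library and 35 of 1152 in the bulk library, so these shares are not loads per cell.

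Depth differed with Cas9. Cas9-rich cells had a median of 46582 UMIs and all Cas9-free cells 24516.5, so each Cas9-rich cell was paired with 1 Cas9-free cell of like total UMIs, Cas9 left out. The 91 matched Cas9-free cells had a median of 46625 UMIs. All 91 Cas9-rich cells found a partner. Levels below are pooled CPM of nuclear transcripts without Cas9, over 4723930 UMIs in Cas9-rich and 4747356 in matched Cas9-free cells. Of the 2207 barcodes, 5 also occur in another library, 1 of them among the compared cells.

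**Figure D1:**
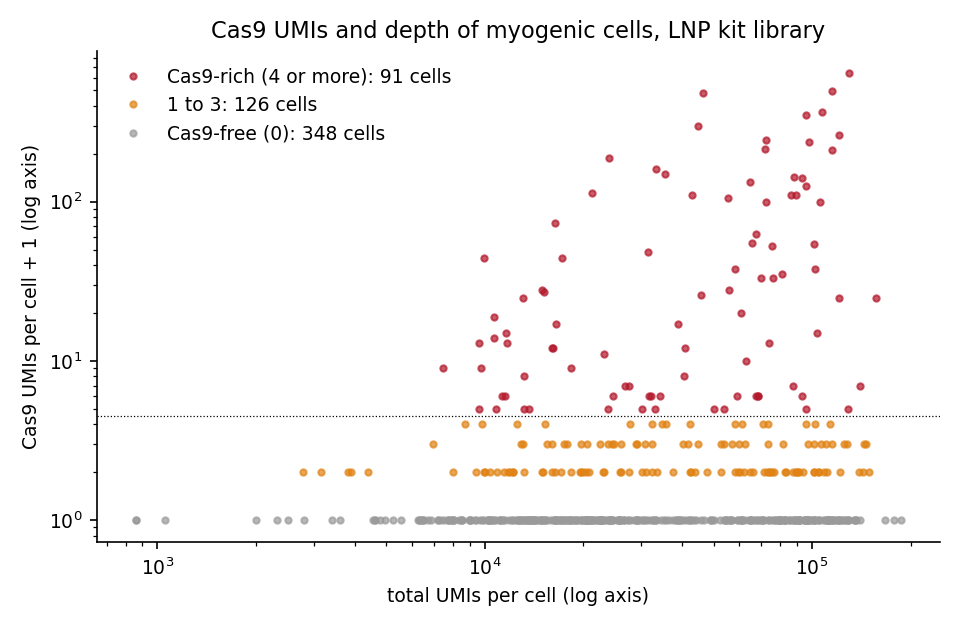
Cas9 UMIs plus 1 per cell against total UMIs without Cas9, both on log axes, for the 565 myogenic cells of the LNP kit library. The dotted line lies between 3 and 4 Cas9 UMIs, and the 91 cells above it span 7457 to 156351 UMIs, within the range of the Cas9-free cells.

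The 10 myogenic markers, 4 of which chose the cells, together stood at 2889 CPM in Cas9-rich and 2642 CPM in matched Cas9-free cells. Of those the rule did not use, Des, the muscle intermediate filament, gave 4789 UMIs in Cas9-rich and 3311 in matched Cas9-free cells, Cdh15, the cadherin of muscle cells, 647 and 641, and Chrna1, a subunit of the acetylcholine receptor, 1751 and 1631. Pax7 was detected in 60.4% of Cas9-rich and 70.3% of matched Cas9-free cells, with a ratio of 0.911 (0.745–1.11). Myf5 had a ratio of 0.934 (0.825–1.06) and Myog one of 0.911 (0.864–0.960). Myod1 was lower, with 159 CPM in Cas9-rich, 259 CPM in matched Cas9-free and 201 CPM in depth-matched vehicle kit cells, a ratio of 0.614 (0.560–0.672). Its per-cell medians were close, at 118 and 119 CPM, and after thinning every cell to 5000 UMIs its ratio was 1.08 (0.786–1.49).

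Splitting the cells by state gave 22 Cas9-rich cells with 3 or more Myog UMIs, 47 cycling cells and 22 others, against 30, 38 and 23 among the matched Cas9-free cells. Cycling here means under 3 Myog UMIs and at least 5 UMIs in sum of the mitotic genes Mki67, Top2a, Cdk1, Ccnb1 and Cdc20. Over all 565 cells, 21.7% (16.4–27.7) of 217 cycling cells were Cas9-rich, against 14.7% (9.43–21.4) of 150 Myog cells and 11.1% (7.10–16.3) of 198 others. The others had a median of 14748 UMIs and the cycling cells 60846, so depth differs between the states too. Cycling cells held 5791 of the 6905 Cas9 UMIs of the myogenic cells.

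Across the library, 10014 genes had at least 30 UMIs over both matched groups and are called measured. A gene counts as past the limit when it was at least 1.5-fold apart, also without the cell that held most of its UMIs in each group. By that rule 427 genes, 4.26% of those measured, were higher in Cas9-rich cells and 479, or 4.78%, were lower. The median gene had a log2 ratio of 0.01. These shares are the background for every count of list members below. Which genes pass depends on the Cas9-free cells that are drawn: with all 348 Cas9-free cells as the reference 202 genes were higher, 125 of them among the 427, and with partners drawn within the 3 states 352 were higher, 216 of them shared. Only 107 of the 427 higher genes and 245 of the 479 lower genes were past the limit with all 3 choices of reference cells.

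The gene furthest apart was Hba-a2, which encodes hemoglobin alpha (chromosome 11, 32296489 to 32297298, GRCm38). It gave 79 UMIs in 42.9% of Cas9-rich cells and 3 UMIs in 2.20% of matched Cas9-free cells, a ratio of 26.5 (8.73–131). Depth-matched vehicle cells stood at 0.423 CPM, against 16.7 CPM in Cas9-rich, 2.13 CPM in cells with 1 to 3 Cas9 UMIs and 0.632 CPM in matched Cas9-free cells. No Cas9-rich cell held more than 6 Hba-a2 UMIs, so the level is spread over many cells at a few UMIs each. With partners drawn within the 3 states, none of the 91 Cas9-free cells held an Hba-a2 UMI, and Cas9-rich cells were at least 26.4-fold higher when the 0 is set to 3 counts over the group.

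Hba-a2 followed the Cas9 load. It was present in 17.4% (7.82–31.4) of the 46 cells with 4 to 19 Cas9 UMIs, 45.5% (24.4–67.8) of the 22 with 20 to 99 and 91.3% (72.0–98.9) of the 23 with 100 or more. Median depth was 28866, 66510 and 86226 UMIs in the 3 bins, and the depth-matched Cas9-free partners held Hba-a2 in 0 of 46, 1 of 22 and 1 of 23 cells. Among 120 Cas9-free cells of at least 50000 UMIs, 7.5% (3.49–13.8) held it. By state, 68.1% (52.9–80.9) of the 47 cycling Cas9-rich cells held Hba-a2, against 0% (0–9.25) of the 38 matched Cas9-free cycling cells. Among cells with Myog the counts were 4 of 22 (18.2%, 5.19–40.3) and 2 of 30 (6.67%, 0.818–22.1), and among others 3 of 22 and 0 of 23. State and Cas9 load go together, as cycling cells held 5791 of the 6905 Cas9 UMIs of the myogenic cells. A difference in Hba-a2 between states therefore cannot be told apart from one in load.

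Other red blood cell transcripts did not move with Hba-a2. Hbb-bs, the beta chain that pairs with alpha in hemoglobin, gave 4 UMIs in Cas9-rich and 1 in matched Cas9-free cells. It was found in 2 of 46, 0 of 22 and 2 of 23 cells over the same Cas9 bins. Hbb-bt and Alas2, the first enzyme of heme synthesis in red cells, were at 0 in both groups. Hba-a1, the neighbouring alpha gene, gave 41 and 10 UMIs, but 35 of the 41 lay in 1 cell. Hba-a1 and Hba-a2 are near-identical copies, so how shared reads were assigned limits what can be said of either alone. Over the 91 Cas9-rich cells Hba-a2 had the highest Spearman correlation with Cas9 of 9411 genes found in at least 15 cells, 0.62, both as shares of the cell's UMIs. The next gene, Pnn, stood at 0.43. These cells share 1 library, and the correlation is a description.

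**Figure D2:**
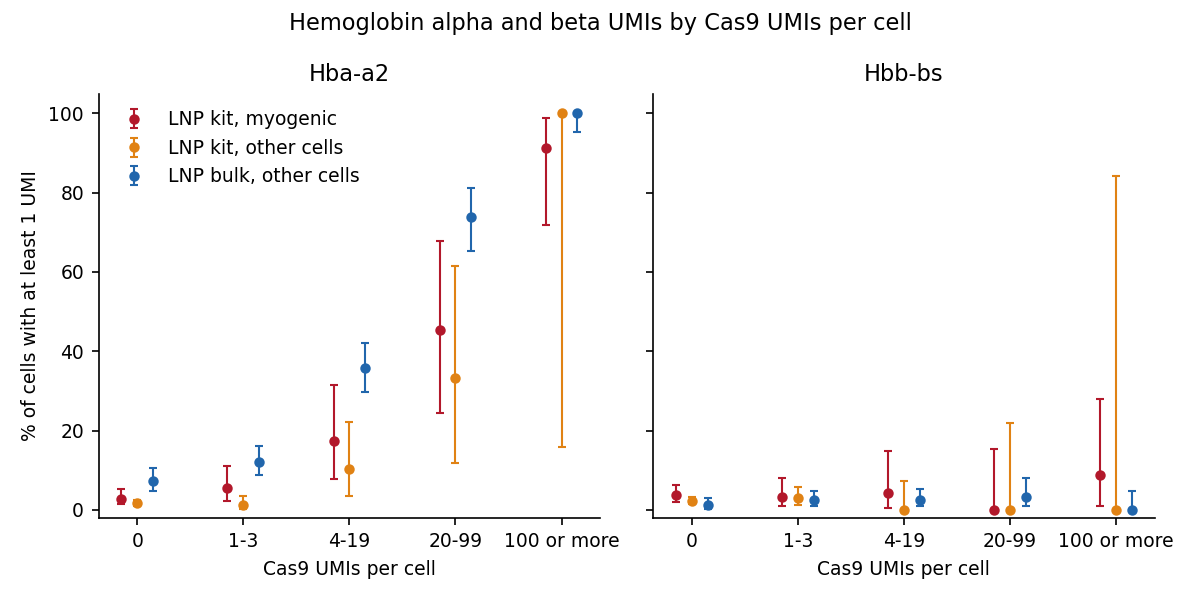
Percentage of cells with at least 1 UMI of Hba-a2 (left) or Hbb-bs (right) by Cas9 UMIs per cell, with exact binomial 95% intervals, in myogenic and other cells of the LNP kit library and in other cells of the LNP bulk library. Hba-a2 climbs to 91.3% of myogenic cells at 100 or more Cas9 UMIs, while Hbb-bs is in at most 8.70% of the cells of any bin.

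Inflammatory genes under NF-kB, the transcription factor that acute stress and cytokines switch on, had the most members past the limit upward of the gene lists. Of 30 list members 22 were measured, 7 were past the limit upward and 0 downward, and the list's median log2 ratio was 0.22. The 7 are the neutrophil-attracting chemokines Cxcl1, Cxcl2 and Cxcl5, the monocyte-attracting Ccl2 and Ccl7, the macrophage growth factor Csf1 and the NF-kB inhibitor Tnfaip3. The list's summed level was 3760 CPM in Cas9-rich, 2768 CPM in matched Cas9-free, 2833 CPM in cells with 1 to 3 Cas9 UMIs and 1601 CPM in depth-matched vehicle cells. Per cell the medians were alike, at 115 UMIs of the list in Cas9-rich and 116 in matched Cas9-free cells. With all 348 Cas9-free cells as the reference only 2 of 25 measured members were higher and 1 was lower, and with partners within states 6 of 22 were higher and 1 lower.

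Cxcl1 ranged from 0 to 7058 CPM over the Cas9-rich cells with a median of 479, and from 0 to 8499 CPM with a median of 213 over the matched Cas9-free cells. The 2 ranges overlap nearly whole. Pooled, Cxcl1 stood at 856 and 556 CPM, a ratio of 1.54 (1.47–1.62), against 253 CPM in vehicle cells, and with all Cas9-free cells its ratio was 1.17. It reached 1000 CPM in 34.1% (24.5–44.7) of Cas9-rich, 19.8% (12.2–29.4) of matched Cas9-free and 12.1% (6.19–20.6) of vehicle cells. Within the Cas9-rich cells it was 631 CPM at 4 to 19 Cas9 UMIs, 683 CPM at 20 to 99 and 1227 CPM at 100 or more. Median depth was 28866, 66510 and 86226 UMIs in these bins, and most Cas9 UMIs lay in cycling cells. The rise with Cas9 load cannot be told apart from depth or state.

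Cxcl2 was at 0 in most matched Cas9-free cells and was detected in 50.5% of Cas9-rich and 36.3% of matched Cas9-free cells, at 402 and 182 CPM, a ratio of 2.21 (2.04–2.40). Vehicle cells stood at 24.1 CPM. Its UMIs lay in few cells, 83.0% of those in the Cas9-rich cells in 10 of them. Ccl2 was detected in 39.6% of the cells of both groups, with 162 and 81.9 CPM, a ratio of 1.97 (1.74–2.24), and 14.2 CPM in vehicle cells. In each group 10 cells held most Ccl2 UMIs, 79.6% in Cas9-rich and 83.5% in matched Cas9-free cells. The Ccl2 ratio ranged from 1.28 after thinning to 5000 UMIs to 3.49 with partners within states. Ccl7 had a ratio of 3.40 (2.34–5.04), but 1.30 against all Cas9-free cells and 8.94 with partners within states. Cxcl5 gave 93 UMIs against 7, of which 71 lay in 1 cell.

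Tnfaip3 stood at 67.1 CPM in Cas9-rich, 37.1 CPM in matched Cas9-free and 19.7 CPM in vehicle cells, and Csf1 at 111, 63.8 and 50.1 CPM. Nfkbia, which holds NF-kB in the cytoplasm and is induced by it, missed the limit with a ratio of 1.21 (1.16–1.26) and levels of 999, 825 and 404 CPM. Vehicle cells were the lowest of the 3 groups for each of these 3 genes, and LNP-treated cells without a Cas9 UMI lay between. The summed list was higher in Cas9-rich cells with Myog (ratio 1.28, 1.22–1.35) and in cycling cells (1.38, 1.35–1.42), and lower in the others (0.811, 0.761–0.865), where cells are shallow.

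The promoters of Cxcl1, Cxcl2 and Tnfaip3 are shown because these members were past the limit, and that of Nfkbia, which missed it, as the list's abundant inhibitor, with capitals marking matches to GGGNNTTTCC, a form of the NF-kB site, searched on both strands. Sequences are from RefSeq (GRCm38.p6), read 5′ to 3′ on the gene's strand, and end at the base before the gene's start: chr5:90890995-90891244 (+ strand) for Cxcl1, chr5:90903649-90903898 (+ strand) for Cxcl2, chr12:55492648-55492897 (- strand) for Nfkbia and chr10:19015411-19015660 (- strand) for Tnfaip3.
Cxcl1: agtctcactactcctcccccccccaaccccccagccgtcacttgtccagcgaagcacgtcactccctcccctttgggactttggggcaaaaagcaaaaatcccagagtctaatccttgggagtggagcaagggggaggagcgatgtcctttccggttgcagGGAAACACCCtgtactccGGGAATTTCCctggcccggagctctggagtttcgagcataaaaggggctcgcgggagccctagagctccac
Cxcl2: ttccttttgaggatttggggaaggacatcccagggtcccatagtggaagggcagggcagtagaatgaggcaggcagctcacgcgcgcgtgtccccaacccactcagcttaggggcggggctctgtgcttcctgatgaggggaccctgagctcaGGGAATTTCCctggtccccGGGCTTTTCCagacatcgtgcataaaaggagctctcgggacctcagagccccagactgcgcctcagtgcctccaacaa
Nfkbia: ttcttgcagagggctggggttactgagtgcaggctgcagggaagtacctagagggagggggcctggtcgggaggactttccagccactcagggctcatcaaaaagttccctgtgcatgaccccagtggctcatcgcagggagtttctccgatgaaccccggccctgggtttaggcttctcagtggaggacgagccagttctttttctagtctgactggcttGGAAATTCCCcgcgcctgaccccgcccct
Tnfaip3: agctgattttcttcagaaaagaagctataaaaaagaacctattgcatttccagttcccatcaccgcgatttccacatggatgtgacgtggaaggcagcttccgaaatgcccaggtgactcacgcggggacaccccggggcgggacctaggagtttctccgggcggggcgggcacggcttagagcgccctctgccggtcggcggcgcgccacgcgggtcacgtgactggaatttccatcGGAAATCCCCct
Cxcl1 and Cxcl2 each hold 2 matches, which begin 89 and 71 bases before the start in Cxcl1 and 97 and 78 before it in Cxcl2. Nfkbia and the Tnfaip3 start shown hold 1 each. The table has a second Tnfaip3 start (window chr10:19011914-19012213, - strand), which holds 0 matches. In windows of 250 bases before to 50 after the start, the motif occurs in 512 of 27025 genes, or 1.89%, and in 7 of the 15 measured list members with a promoter in the table. All 4 of the members past the limit that have a promoter there (Cxcl1, Cxcl2, Csf1 and Tnfaip3) hold it. The list was made of known NF-kB targets, so this describes the genes and shows no binding.

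Interferon genes, which cells turn on when foreign RNA is sensed, gave no single direction. Of 23 measured members 4 were higher (Isg15, Cxcl10, Xaf1, Rsad2) and 3 lower, among them Gbp2 and Stat2, with a median log2 ratio of 0.25. With partners within states the median was -0.12, with 1 higher and 3 lower. Cxcl10, an interferon-induced chemokine, had a ratio of 2.34 (1.84–2.97), with 99 of its 237 UMIs in 1 cell, and 0.615 (0.480–0.785) when cells needed 6 marker UMIs. The most abundant members were near even: Ifitm3, which blocks virus entry, had a ratio of 1.14 (1.07–1.22) and Ly6e one of 0.946 (0.848–1.06). The list of RNA sensors also holds Adar, an enzyme that edits double-stranded RNA. Of the list's 6 measured genes 0 were higher and 1, Adar, was lower.

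Most stress and damage lists had 0 or 1 gene past the limit, near the background of 4.26% higher and 4.78% lower. DNA repair had 0 of 24 measured genes past it in either direction, with 3511 UMIs in Cas9-rich and 3516 in matched Cas9-free cells and a summed ratio of 1.004 (0.957–1.05). Heat shock genes had 0 of 16, proteasome and ubiquitin genes 0 of 20 and MHC class I genes, which display peptides to T cells, 0 of 12. Genes of the unfolded protein response had 1 of 19 higher (Sdf2l1), NRF2 targets 1 of 15 higher (Me1) and lysosome genes 1 of 21 lower (Lipa). Targets of p53, the factor that DNA breaks activate, had 2 of 27 higher (Tnfrsf10b, Pmaip1) and 3 lower (Btg2, Trp53inp1, Gtse1). Both shares are above the background, on few genes, and over the 15 alternatives 0 to 4 were higher and 0 to 6 lower. The cell cycle inhibitor Cdkn1a stood at 214 CPM in Cas9-rich, 276 CPM in matched Cas9-free and 275 CPM in vehicle cells, a ratio of 0.776 (0.714–0.842). Mdm2, which degrades p53, had a ratio of 0.861 (0.725–1.02).

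Genes of the routes by which an LNP is thought to enter are set beside the background of 4.26% higher and 4.78% lower. Of 26 endocytosis and endosome genes 1 was past the limit, the transferrin receptor Tfrc, with 122 and 73.5 CPM and a ratio of 1.66 (1.45–1.90), against 57.1 CPM in vehicle cells. The list of lipoprotein and scavenger receptors also holds Apoe, which is a ligand and not a receptor. Of the list's 13 measured genes 0 were higher and 3 lower (Apoe, Sorl1, Vldlr), the latter a share above the background. Over the 15 alternatives 0 to 3 of this list were lower. Lrp1, a receptor that takes up lipoproteins and many other ligands, had a ratio of 1.21 (0.979–1.49) and Lrp6, a Wnt co-receptor, one of 1.01 (0.832–1.24). Apoe itself had a ratio of 0.397 (0.312–0.503), but 1.25 (0.917–1.70) when cells needed 1000 genes and at most 10% mitochondrial UMIs. Of 22 cholesterol synthesis genes 2 were higher and 0 lower, among the 2 Dhcr7, which makes the last step to cholesterol, with 22 and 11 UMIs. The median log2 ratio of this list was 0.26, and it ranged from 0.099 to 0.455 over the 15 alternatives.

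Muscle differentiation had the lowest median of the gene lists. Of 28 measured members 0 were higher and 4 lower (Tnnt2, Actc1, Ckb, Mef2c), and the median log2 ratio was -0.45, the same to 0.01 with partners within states (-0.46, 8 lower) and close against all Cas9-free cells (-0.49, 9 lower). Without 1 matched Cas9-free cell, the one richest in fibre markers, and its partner, the median was -0.17 with 1 higher and 4 lower, and over all 15 alternatives it ranged from -0.85 to 0.10. Mef2c, a transcription factor of fibre genes, stood at 14.8 CPM in Cas9-rich, 64.7 CPM in matched Cas9-free, 49.0 CPM in cells with 1 to 3 Cas9 UMIs and 96.9 CPM in vehicle cells, a ratio of 0.229 (0.174–0.298). Actc1, the actin of developing muscle, was at 131, 411, 356 and 547 CPM in the same order, a ratio of 0.317 (0.290–0.348). Both were detected in a minority of cells: Actc1 was in 36.3% of Cas9-rich and 37.4% of matched Cas9-free cells, with a highest value of 3952 and 5102 CPM.

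The summed level of the list depends on state, and Myog, which defines a state, is itself a member of the list. It was 17737 CPM in Cas9-rich and 19911 CPM in matched Cas9-free cells with Myog (ratio 0.891, 0.877–0.905), and higher in Cas9-rich cells among cycling (1.14, 1.09–1.19) and other cells (1.43, 1.34–1.52), so the sign of the sum differs from that of the median there. Mymk, needed for myoblast fusion, had a ratio of 0.866 (0.776–0.967) and Myh3, embryonic myosin, 1.06 (0.943–1.202). The Myh3 ratio was 0.613 with partners within states and 0.393 when Cas9-rich meant at least 10 Cas9 UMIs.

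Of 10 measured fibre markers 0 were higher and 5 lower (Ckm, Myh1, Myh4, Mb, Pvalb), of which Ckm was part of the rule's limit. The 11 markers gave 8879 UMIs in Cas9-rich and 13682 in matched Cas9-free cells, but 4888 of the latter lay in 1 cell, and without the top cell of each group the sums were 7746 and 8794. The same Cas9-free cell held 60 of the 98 UMIs of Tcap, a protein of the fibre's Z-disc, which gave 5 UMIs in Cas9-rich cells. Pgam2, the muscle form of a glycolysis enzyme, had a ratio of 0.388 (0.286–0.520), Hrc 0.262 (0.160–0.414) and Mylk4 0.177 (0.107–0.280). Hrc was at 0.680 when cells needed 1000 genes and at most 10% mitochondrial UMIs, and Mylk4 at 0.875 with at least 10 Cas9 UMIs. The part of fibre RNA from outside the cell in these values was not tested.

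Dmd, the gene the model lacks in function, gave 52 UMIs in Cas9-rich and 103 in matched Cas9-free cells, or 11.01 and 21.7 CPM, against 26.7 CPM in vehicle cells. Its ratio was 0.507 (0.356–0.715), but 25 of the 103 UMIs lay in the Cas9-free cell richest in fibre markers, and without it and its partner the ratio was 0.670 (0.463–0.964), inside the limit. It was detected in 35.2% and 36.3% of the cells. The reads are 3' counts and do not show whether the gene was edited. Among 18 measured genes of the dystrophin complex 1 was higher (Sntb1) and 2 lower (Sspn, Dmd). Utrn, which encodes the dystrophin relative utrophin, had a ratio of 1.08 (0.933–1.24).

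The pooled level of cell cycle genes was lower in Cas9-rich cells, which held more cycling cells, but with equal weight per cell it was not. Of 36 measured genes of G2 and M phase only 2 had a log2 ratio above 0 and 0 were past the limit either way, with a median of -0.23. Their sum was 4045 CPM in Cas9-rich, 4773 CPM in matched Cas9-free and 5246 CPM in vehicle cells, and it was lower in Cas9-rich cells within each state, with ratios of 0.692 (0.664–0.721) among Myog, 0.870 (0.850–0.889) among cycling and 0.739 (0.617–0.886) among other cells. Mki67, Top2a, Cdk1, Ccnb1 and Cdc20, which set the cycling state, are members of this list. The split by state therefore itself limits the level of the list in cycling and other cells. Mki67 had a ratio of 0.764 (0.707–0.825) and Top2a one of 0.847 (0.792–0.905). The 29 S phase genes had a median of -0.12 and 0 past the limit. With equal weight per cell the median was 0.05 for G2 and M phase and 0.13 for S phase, and the S phase median was also above 0 against all Cas9-free cells (0.07), with partners within states (0.05) and after thinning (0.05). Per-cell medians were 109 UMIs of the G2 and M list in Cas9-rich and 100 in matched Cas9-free cells, and 72 and 59 UMIs of the S phase list.

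Of 23 measured genes of satellite cell quiescence 2 were higher (Sdc3, Col5a3) and 5 lower (Spry1, Heyl, Tenm4, Chrdl2, Gas1). Spry1, which restrains growth factor signals, stood at 18.2 and 37.1 CPM with a ratio of 0.491 (0.375–0.639), and Heyl, a Notch target, had a ratio of 0.557 (0.388–0.793). Cdkn1c, a cell cycle inhibitor of the committed myoblast, was at 751 and 1084 CPM, a ratio of 0.693 (0.663–0.723), and missed the limit. Egr1, an immediate early gene, was at 193 CPM in Cas9-rich, 342 CPM in matched Cas9-free and 460 CPM in vehicle cells, a ratio of 0.564 (0.519–0.612). Of 24 immediate early genes 1 was higher (Egr3) and 3 lower (Dusp2, Zfp36, Egr1).

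Of 23 measured matrix genes 2 were higher, Timp1 and Tnc, and 5 lower, Postn, Col4a1, Col4a2, Col1a1 and Bgn. Against all Cas9-free cells 1 of 24 was higher and 11 were lower with a median log2 ratio of -0.51, and with at least 10 Cas9 UMIs 2 of 23 were higher and 10 lower. Timp1, an inhibitor of matrix proteases, stood at 264 CPM in Cas9-rich and 136 CPM in matched Cas9-free cells, a ratio of 1.94 (1.76–2.14), and at 249 CPM in vehicle cells, so here the matched Cas9-free cells were the low group. Tnc, the tenascin of regenerating muscle, was at 183, 92.9 and 94.98 CPM in the same order, a ratio of 1.97 (1.75–2.21), and was highest at 4 to 19 Cas9 UMIs with 282 CPM. Col4a1, a chain of basement membrane collagen, was at 63.7, 111 and 104 CPM, a ratio of 0.572 (0.495–0.660). Sparc, with Timp1 the most abundant of the matrix list, missed the limit with a ratio of 0.708 (0.664–0.755).

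The rest of the 10 most separated genes on the higher side were Dqx1, Dynap, Ereg, Gm26885, Ccl7, Wnt7b, F2rl1, B930036N10Rik and Col27a1. Col27a1, a fibrillar collagen, was found in 54.9% and 28.6% of cells with a ratio of 2.68 (2.01–3.61), and Wnt7b, a Wnt ligand, in 30.8% and 13.2% with 3.28 (1.94–5.81). The vehicle levels of these genes were not always near the Cas9-free ones: Gm26885 stood at 27.1 CPM in Cas9-rich, 6.74 CPM in matched Cas9-free and 30.04 CPM in vehicle cells, and Dqx1 at 25.8, 3.58 and 36.8 CPM. B930036N10Rik is annotated as antisense, and its overlap with genes on the other strand limits its reading. Ereg, an EGF receptor ligand, had 50 against 12 UMIs, and F2rl1, a protease receptor, 32 against 10. On the lower side stood S1pr3, a sphingosine-1-phosphate receptor, with 12 against 86 UMIs, Il11ra1, the interleukin-11 receptor, with 13 against 55, Chrdl2 with 10 against 37 and 9330159F19Rik with 6 against 28.

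**Figure D3:**
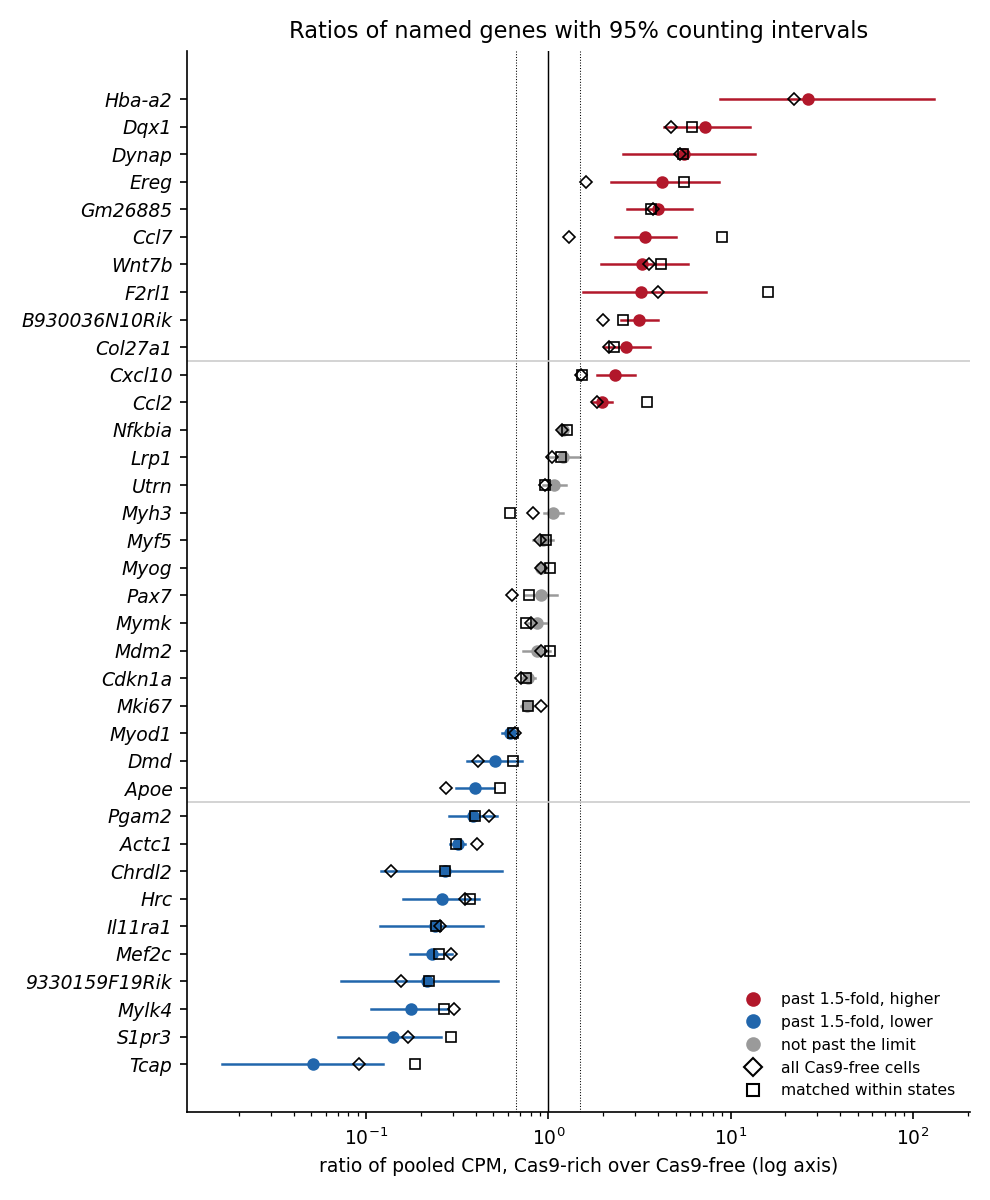
Ratio of pooled CPM, Cas9-rich over matched Cas9-free cells, on a log axis with 95% counting intervals, for the 10 highest genes (top), genes of prior interest (middle) and the 10 lowest (bottom). Open symbols give the ratio against all 348 Cas9-free cells and with partners within states, where Hba-a2 has no symbol because the partners held 0 UMIs. Ccl7 is at 1.30 against all Cas9-free cells and 8.94 with partners within states.

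**Figure D4:**
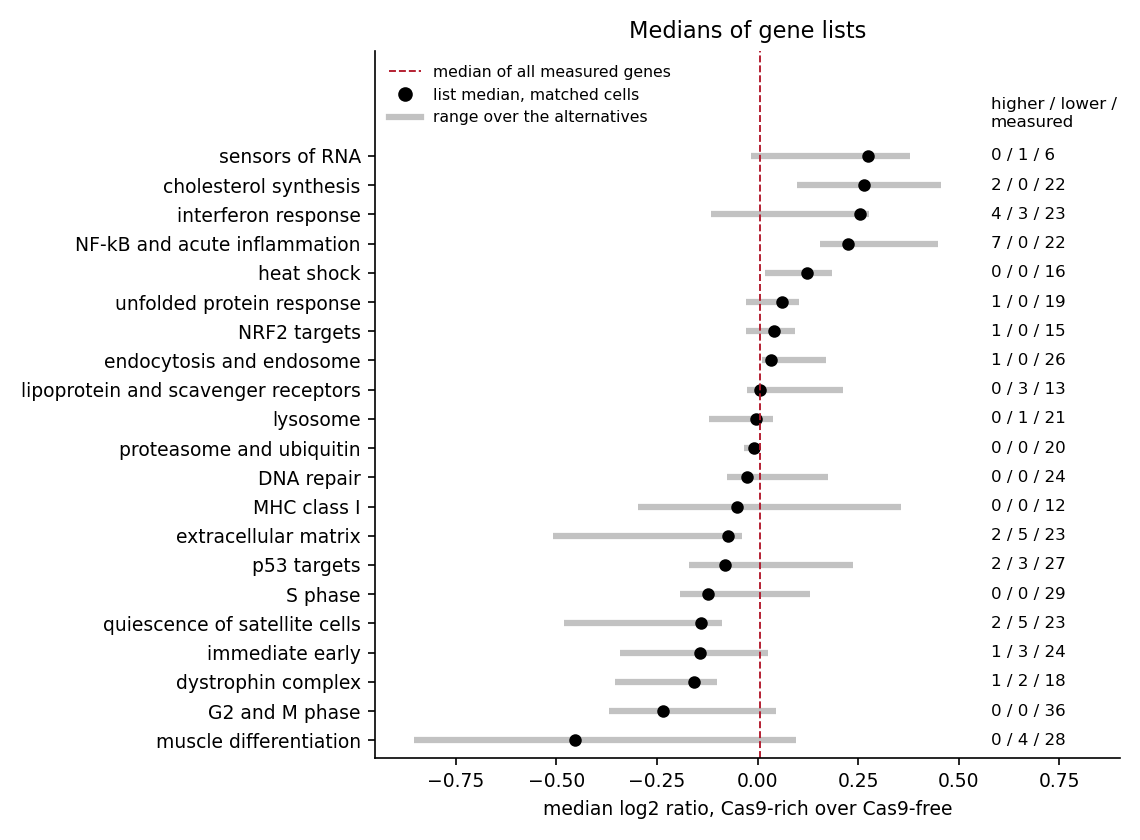
Median log2 ratio of the measured members of each gene list (points), with the range over the 15 alternatives (bars) and the counts of members past the limit. The dashed line is the median of all 10014 measured genes, and the muscle differentiation list lies furthest below it at -0.45.

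**Figure D5:**
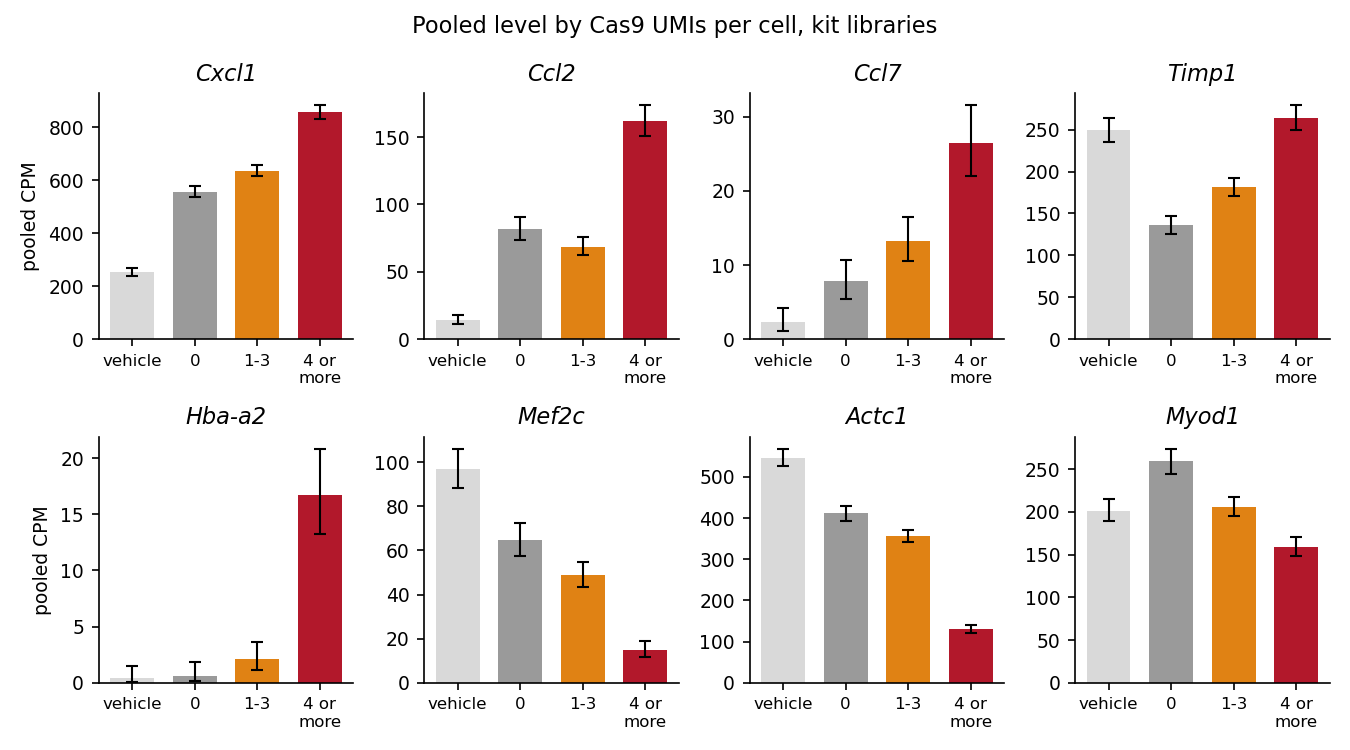
Pooled CPM with exact Poisson 95% intervals in depth-matched vehicle kit cells and in LNP kit myogenic cells with 0 (matched), 1 to 3, and 4 or more Cas9 UMIs. Cxcl1 climbs from 253 to 856 CPM over the 4 groups, Hba-a2 stands apart at 4 or more, Timp1 is lowest at 0 Cas9 UMIs, and Actc1 goes from 547 to 131 CPM.

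Markers of other cell types were scarce in both groups. The 11 macrophage and monocyte markers gave 12 UMIs in each group with 8 of them at 0 in both, including C1qa, Adgre1 and Csf1r, and no cell held more than 3. The 7 neutrophil markers gave 19 and 10 UMIs with Ly6g at 0, the 9 T, NK and B cell markers 2 and 1, and the 7 endothelial markers 15 and 20 with Kdr and Cdh5 at 0. The 6 dendritic cell markers gave 21 and 14 UMIs with Flt3, Clec9a and Cd209a at 0, and 20 and 13 of these were Zbtb46, which was past the limit upward. Fibro-adipogenic markers gave 312 and 392 UMIs and pericyte and smooth muscle markers 247 and 430, with 132 of the 430 in 1 cell. The 8 tenocyte markers gave 397 and 387 UMIs, of which 365 and 356 were Scx. The 8 glial markers gave 1335 and 932 UMIs, most of them Ncam1, which myoblasts also make (860 and 810), and 341 lay in 1 Cas9-rich cell. The part of such RNA in the gene ratios was not tested, but without barcodes that held 0.5% or more of other cell types' markers (1 in each matched group) 397 of the 427 higher and 432 of the 479 lower genes were called again.

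In the LNP bulk library the 9 Cas9-rich myogenic cells (median 76089 UMIs) could be set beside 8 Cas9-free ones (median 20056), unmatched. Of 36 genes higher in the kit that were measured there 75% had a ratio above 1, of 45 lower ones 15.6%, and of all 3458 genes measured in both 57.6%. Pooled, Ccl2 had a ratio of 8.04 (4.97–13.9) there, Cxcl2 7.65 (3.96–16.9) and Cxcl1 1.46 (1.22–1.76), but 339 of the 441 Ccl2 and 155 of the 222 Cxcl2 UMIs of the Cas9-rich cells lay in 1 cell each. Ccl2 reached 1000 CPM in 1 of the 9 Cas9-rich and 1 of the 8 Cas9-free cells. Pooled levels were also higher for Timp1 with 7.02 (4.12–12.99) and for Tnc with 4.72 (2.75–8.78). Actc1 was lower with 0.0543 (0.0205–0.122) and Myod1 even with 1.06 (0.682–1.69). Hba-a2 was in 4 of the 9 Cas9-rich cells, with 6 UMIs in all, and in 1 of the 8 others. The 2 groups differ in depth and in state, with 5 cycling cells of 9 against 1 of 8, and these ratios rest on a few cells.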

How the data were processed

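The deposited files are UMI counts per gene and barcode for 4 libraries, as the authors' Cell Ranger run wrote them. Cell Ranger is given as 5.0.1 per the file headers and as 7.0.1, with mm10 as the genome, per the submitters' processing notes. The tables hold 32286 features, of which 1 is Cas9. From these raw counts, barcodes were selected by the rule given above, and each Cas9-rich cell was paired one to one with a Cas9-free cell within 0.1 log10 units of total UMIs without Cas9. Counts were summed per group and divided by nuclear UMIs without Cas9. Ratios carry exact conditional binomial 95% intervals, and no test was made because each group is 1 library. Cas9-free vehicle kit cells were matched the same way. List medians add 0.5 UMIs to each count.

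Named are the 10 highest and 10 lowest genes by the bound nearest 1 without each group's top cell, the 2 most abundant members of each list, and genes of prior interest. Other genes are list members past the limit, named because their count is small, after their values were seen. The members and lists were chosen with earlier results of these data known. Gene positions come from GENCODE on GRCm38, which held 32235 of the identifiers. Doublets were not removed. Scrublet (scanpy 1.11.5) called 8 of 1907 cells, 0.420%, so the top 5% of its scores were left out as an alternative. 13 alternatives were planned and 2 were added after seeing the data, leaving out barcodes with Hba-a1, Hbb-bs or Hbb-bt UMIs, and leaving out the matched Cas9-free cell richest in fibre markers with its partner. Some genes are not reported here. The comparison was checked on simulated counts. Total UMIs per library ranged from 25921795 to 40666916. Python 3.11.15, numpy 2.4.6, scipy 1.17.1 and pandas 2.3.3 were used.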

Additional observations from a re-analysis of the deposited data

Results flagged for a closer look

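In cells outside the myogenic rule, which the comparison does not use, Hba-a2 UMIs stood above the vehicle level in the LNP bulk library and, at 4 or more Cas9 UMIs, in the LNP kit library. In the LNP bulk library 7.29% (4.77–10.6) of 343 such cells with 0 Cas9 UMIs held Hba-a2, 12.1% of 323 with 1 to 3, 35.7% of 249 with 4 to 19, 73.8% of 126 with 20 to 99 and 100% (95.3–100) of 76 with 100 or more, against 0.861% (0.414–1.58) of 1161 cells of the vehicle bulk library. Median depth was 4643 UMIs in the first and 30442 in the last of these LNP groups, and 22138 in the vehicle cells. Hbb-bs was in 0 of the 76 cells. In the LNP kit library the shares were at the vehicle level at low load, 1.64% (0.960–2.62) of 1035 cells with 0 Cas9 UMIs and 1.24% (0.257–3.59) of 241 with 1 to 3, and above it at 10.2% of 49 cells with 4 to 19 Cas9 UMIs, 33.3% of 15 with 20 to 99 and 100% of 2 with 100 or more, against 1.16% (0.580–2.06) of 949 vehicle kit cells. At 100 or more Cas9 UMIs there were 3.23 (2.996–3.48) Hba-a2 UMIs per 100 Cas9 UMIs in the LNP bulk cells and 0.967 (0.721–1.27) in the LNP kit myogenic cells. The cause was not tested.

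2 matrix genes had ratios on opposite sides of 1 in the 2 LNP libraries. Col1a1, a chain of fibrillar collagen, had 0.415 (0.301–0.565) in the kit and 8.10 (5.44–12.6) in the bulk library. Bgn, which encodes biglycan, had 0.656 (0.528–0.814) and 1.91 (1.25–3.04). The bulk ratios rest on 9 and 8 cells of unequal depth, and the difference between the libraries was not tested.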

How the results depend on the processing

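No paired analysis was possible because each group is 1 library and no replicate numbers exist. The count of 427 higher genes was 202 against all Cas9-free cells, 136 with at least 100 UMIs per gene and 1756 with no minimum of UMIs or cells. The count of 479 lower genes was 166 and 1910 under the last 2 of these and 294 after thinning to 5000 UMIs, where only 4124 genes were measured and 31 of the 427 higher and 50 of the 479 lower genes were called again. Under the remaining alternatives both counts stayed within 1.5 times. 4 named genes past the limit changed direction: Apoe to 1.25 with 1000 genes and 10% mitochondrial UMIs, F2rl1 to 0.508 and Myod1 to 1.08 after thinning, and Cxcl10 to 0.615 with 6 marker UMIs. Of 1108 ratios of named genes under the 15 alternatives, 885 lay inside the main interval, 219 outside it on the same side or without a call, and these 4 reversed. Over 10 fits, the main one and 9 that change the cells or their weights, 62 of the 427 higher genes (14.5%) and 88 of the 479 lower genes (18.4%) were called every time, among them Hba-a2, Wnt7b and Col27a1, and Actc1, Mef2c, S1pr3 and Pgam2. The Hba-a2 ratio ranged from 15.3 after thinning to 73.4 without its top cells. Genes of few UMIs are limited by depth, since 0 UMIs in the matched Cas9-free group allow up to 0.777 CPM by the exact Poisson interval.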
